A study of Mus musculus with 23 samples.

Results

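The Bcl-2 family was followed through 10 genes of the 26869 in the count table: Bcl2l11, Bcl2, Mcl1, Bcl2l1, Bax, Bak1, Bid, Pmaip1, Bbc3 and Bcl2a1b. The genes were listed by symbol and matched to the Ensembl identifiers of the table, and all 10 had a row and passed the filter on low counts. Bcl2l11 was chosen by its measured values, since its change with antibody differed between responder and non-responder hosts in these same tumors, so its values in that contrast and in the antibody contrasts are given as descriptions without a test. The other 9 were listed as members of the same family, with earlier results of these data known.

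RNA was sequenced from 23 MC38 tumors, a mouse colon carcinoma line of C57BL/6 origin, grown in female F1 mice aged 8 to 12 weeks. Each host was C57BL/6J crossed with a Collaborative Cross (CC) line, a recombinant inbred mouse bred from several founder strains, and the 6 crosses are called CC001F1, CC002F1, CC075F1, CC036F1, CC079F1 and CC080F1. The cells were injected under the skin, and at a tumor size of 75 to 110 mm3 they received 200 µg of either an isotype control antibody (clone 2A3) or an antibody against PD-1 (aPD1, clone 29F.1A12), with harvest 48 h later. The study's text, and not the sample labels, classes CC001F1, CC002F1 and CC075F1 as responders (R) and CC036F1, CC079F1 and CC080F1 as non-responders (NR) to aPD1. There were 2 tumors for each line and antibody, but only 1 for CC080F1 with aPD1. This gave 6 R isotype, 6 R aPD1, 6 NR isotype and 5 NR aPD1 tumors. Each class rests on 3 lines, so class and host line cannot be told apart.

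Bcl-2 family proteins decide whether the outer mitochondrial membrane is opened during apoptosis. Bcl2, Mcl1, Bcl2l1 (Bcl-xL) and Bcl2a1 (A1) hold the membrane closed, Bax and Bak1 form the pores, and the BH3-only proteins Bcl2l11 (BIM), Bid, Pmaip1 (NOXA) and Bbc3 (PUMA) neutralize the first group or activate the second. In lymphocytes BIM is known for the removal of cells after antigen stimulation, and A1 is found mainly in blood cells.

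These were whole tumors, so each value is a sum over carcinoma, stromal and immune cells, and fewer cells of a type cannot be told apart from less RNA per cell. Library totals ran from 14494014 to 71868253 counts, with 6 shallow libraries (up to 18354585 counts, 2 R and 4 NR) and 17 deep ones (from 37242363 counts, 10 R and 7 NR). The epithelial markers Epcam, Krt8, Krt18, Krt19 and Cdh1 summed to 149 to 879 normalized counts, while macrophage markers summed to 42109 to 115184. The study marked MC38 cells by another gene, Shisal2b. Whether the epithelial sum follows carcinoma content was not tested, so these sums do not compare the amounts of the 2 cell types. Skeletal muscle markers reached at least 1000 summed normalized counts in 5 tumors, of which 4 were R and 1 was NR. The lymph node marker Glycam1 was found in 3 tumors.

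Promoter sequence is shown for Bcl2l11 and Bbc3, which share a forkhead (FOXO) word, and for the 3 Bcl2a1 genes. The 3 Bcl2a1 genes were all higher in R than in NR over all tumors, by differing amounts, and their transcripts share sequence. Their values were not correlated with each other here. The windows hold 250 bases before and 50 after a RefSeq start site on GRCm38.p6, and 9 of the 10 genes were matched, with 14 windows. Capitals mark the FOXO word GTAAACA on either strand, or the AP-1-like word TGANTCA. N stands for any base, and the stretch found was TGAATCA in all 3 Bcl2a1 windows. All sequences run 5′ to 3′ on the strand of the gene.
Bcl2l11, chr2:128125788-128126087, plus strand: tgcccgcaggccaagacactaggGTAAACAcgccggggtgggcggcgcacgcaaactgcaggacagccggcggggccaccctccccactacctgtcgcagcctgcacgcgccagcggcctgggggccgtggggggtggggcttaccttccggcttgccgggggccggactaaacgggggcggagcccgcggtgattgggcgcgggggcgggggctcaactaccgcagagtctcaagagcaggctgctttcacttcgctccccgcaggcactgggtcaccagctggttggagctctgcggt
Bbc3, chr7:16310011-16310310, plus strand: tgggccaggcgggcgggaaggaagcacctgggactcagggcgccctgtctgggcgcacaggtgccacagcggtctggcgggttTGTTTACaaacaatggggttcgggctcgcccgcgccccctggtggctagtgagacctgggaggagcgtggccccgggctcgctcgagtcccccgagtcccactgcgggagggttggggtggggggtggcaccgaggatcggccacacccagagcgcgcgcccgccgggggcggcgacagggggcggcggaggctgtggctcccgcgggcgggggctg
Bcl2a1b, chr9:89199023-89199322, plus strand: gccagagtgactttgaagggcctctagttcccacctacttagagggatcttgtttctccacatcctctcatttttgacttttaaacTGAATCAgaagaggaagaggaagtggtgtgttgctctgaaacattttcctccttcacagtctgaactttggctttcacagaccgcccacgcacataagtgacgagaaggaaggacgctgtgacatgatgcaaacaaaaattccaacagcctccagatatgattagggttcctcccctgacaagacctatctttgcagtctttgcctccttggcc
Bcl2a1a, chr9:88956670-88956969, plus strand: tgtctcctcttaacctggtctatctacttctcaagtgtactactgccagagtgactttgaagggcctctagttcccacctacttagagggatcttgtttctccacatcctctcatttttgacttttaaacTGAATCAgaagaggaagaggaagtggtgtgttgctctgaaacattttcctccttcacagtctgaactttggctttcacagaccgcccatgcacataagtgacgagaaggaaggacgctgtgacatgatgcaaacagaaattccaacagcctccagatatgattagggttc
Bcl2a1d, chr9:88731801-88732100, minus strand: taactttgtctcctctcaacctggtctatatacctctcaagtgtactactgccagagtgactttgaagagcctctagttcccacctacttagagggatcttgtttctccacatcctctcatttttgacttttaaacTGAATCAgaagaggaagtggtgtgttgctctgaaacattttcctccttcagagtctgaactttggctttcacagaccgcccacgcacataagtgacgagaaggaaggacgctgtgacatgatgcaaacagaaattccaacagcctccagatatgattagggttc

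The FOXO word lay at -227 from the start site in Bcl2l11 and, on the opposite strand, at -167 in Bbc3. Of 2 windows for Bcl2l11 and 3 for Bbc3, 1 of each held it, and the windows not shown did not. The FOXO word was present in 3.65% of 32851 RefSeq windows of the same length outside chromosome 18. The AP-1-like word was present in 7.81% of them and lay at -164 in Bcl2a1b, -120 in Bcl2a1a and -114 in Bcl2a1d. The Bcl2a1b window was 99.2% identical to that of Bcl2a1a over 256 aligned positions and 96.5% identical to that of Bcl2a1d over 256. The search also covered words named STAT, ISRE and NF-kB, which matched none of the windows of these genes. Those words were present in 8.3%, 3.44% and 0.411% of the RefSeq windows. The words and windows shown are thus those with a match. The FOXO and AP-1-like matches describe letters only and show no binding.

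Levels were compared between genes per kilobase of merged exon length, as DESeq2-normalized counts per kb over the 23 tumors. Mcl1 had the highest median at 2596 per kb, followed by Bak1 at 2030, Bcl2a1b at 1486, Bax at 729, Bcl2l1 at 444 and Bid at 373. Bbc3 had 141, Bcl2l11 112, Bcl2 96.6 and Pmaip1 36.5. The ranges of neighbors in this order overlapped, except between Bax and Bcl2l1, between Bid and Bbc3, and between Bcl2 and Pmaip1. The pore-forming genes Bax and Bak1 and the survival genes Mcl1 and Bcl2a1b took the first 4 places, and the BH3-only genes stood from the sixth place down.

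**Figure D1:**
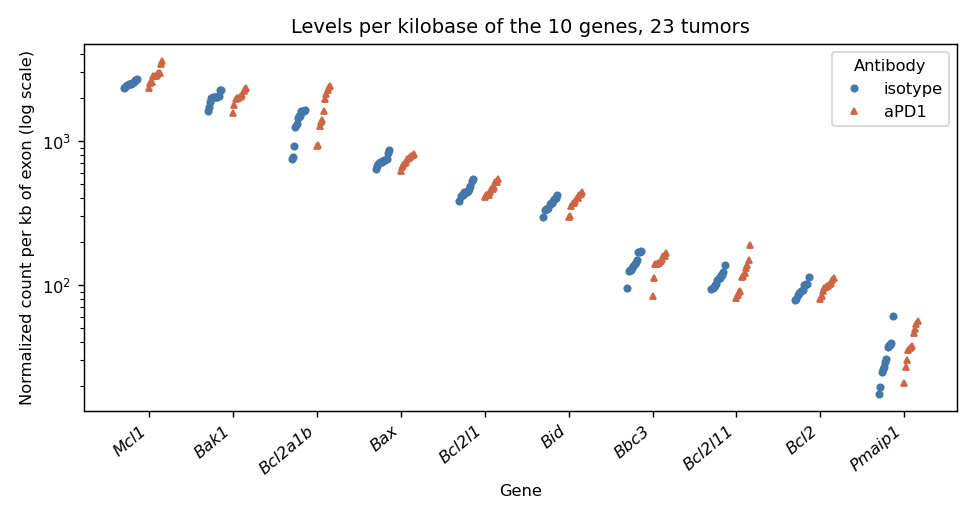
Normalized counts per kilobase of exon (log axis) for the 10 genes, ordered by median, with 1 point per tumor and the isotype and aPD1 tumors side by side. Mcl1 (median 2596) stands at the left and Pmaip1 (median 36.5) at the right.

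The spread over tumors also differed between genes. Pmaip1 varied 3.46-fold from its lowest to its highest tumor, Bcl2a1b 3.23-fold, Bcl2l11 2.36-fold and Bbc3 2.04-fold. The other 6 genes varied by 1.39-fold to 1.56-fold. Values of Bcl2a1b are uncertain, because 56.8% of its 100-base windows occur in other genes, with 42.2% in Gm29094, 31.1% in Bcl2a1d and 16.4% in Bcl2a1a. Bid and Bak1 overlap exons of genes on the opposite strand, Bcl2l13 and Ggnbp1, and Bax overlaps Gm45808 on its own strand. Whether reads were counted by strand is not given in the sources used here.

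Bcl2l11 (ENSMUSG00000027381, chr2:128126038-128162547, plus strand) encodes BIM. In CC001F1 it had 759 and 820 normalized counts with isotype and 913 and 974 with aPD1. In CC002F1 it had 805 and 761 with isotype and 1056 and 1204 with aPD1. In CC075F1 it had 875 and 1111 with isotype and 1533 and 1109 with aPD1. The aPD1 tumors lay above the isotype tumors in CC001F1 and CC002F1 and overlapped them in CC075F1.

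The order was turned around in the NR lines. In CC036F1, Bcl2l11 had 780 and 902 normalized counts with isotype and 722 and 735 with aPD1. In CC079F1 it had 937 and 898 with isotype and 679 and 650 with aPD1. In CC080F1 it had 984 and 942 with isotype and 928 in the single aPD1 tumor. The aPD1 tumors lay below the isotype tumors in all 3 NR lines.

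**Figure D2:**
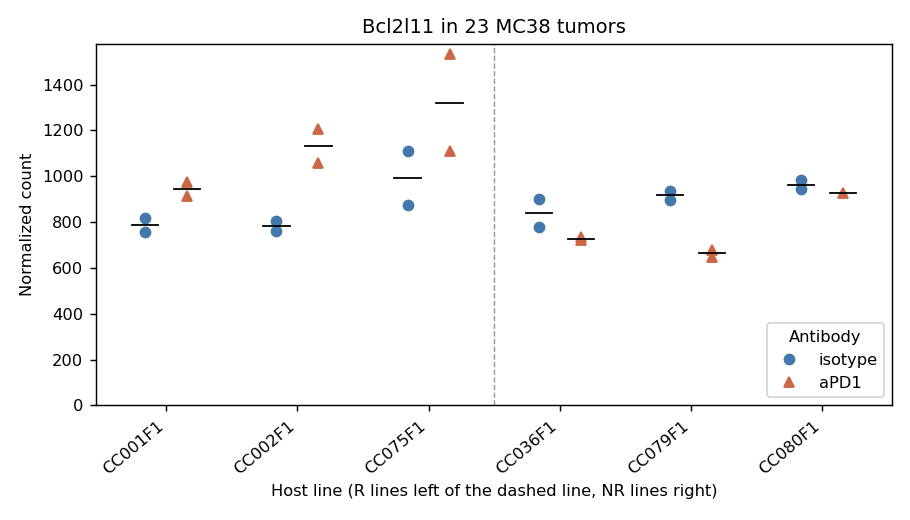
Normalized counts of Bcl2l11 for each of the 23 tumors by host line, with circles for isotype, triangles for aPD1 and a bar at each mean. The aPD1 tumors run from 913 to 1533 in R lines and from 650 to 928 in NR lines.

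The mean log2 change of Bcl2l11 with aPD1 was largest for CC002F1 at 0.53, then 0.40 for CC075F1 and 0.26 for CC001F1. It was -0.05 for CC080F1, -0.20 for CC036F1 and -0.47 for CC079F1. The fitted change was 0.40 ± 0.10 (SE, n = 12) on the log2 scale in R lines and -0.26 ± 0.09 (SE, n = 11) in NR lines. The difference between those changes was 0.67 ± 0.13 (SE, n = 23), which is the contrast that chose the gene. In that contrast 0.0342% of 26342 genes tested passed an adjusted p of 0.05 in DESeq2. Bcl2l11 was taken from among these genes, so nothing is read from its place there. With edgeR in place of DESeq2 the difference was 0.65, and no gene of 26342 passed, though 1932 had an unadjusted p under 0.05. Without the 5 tumors with skeletal muscle counts, 4 of them R, the difference was 0.58, from a change of 0.28 in R lines and of -0.28 in NR lines.

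Between classes, Bcl2l11 was 0.60 ± 0.14 higher on the log2 scale in R than in NR with aPD1 (SE, n = 11) and -0.09 ± 0.10 with isotype (SE, n = 12). Over all 23 tumors, R exceeded NR by 0.24 ± 0.11 (SE), which did not pass (DESeq2 Wald test, adjusted p = 0.119). Host line as a whole passed for Bcl2l11 (DESeq2 likelihood ratio test, adjusted p = 0.0438), but not in edgeR (adjusted p = 0.116) or in the 17 deep libraries (adjusted p = 0.231). Neither fit is the contrast that chose Bcl2l11, but both use the same tumors, so they are no independent support.

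Among the other 9 genes, none rose in mean in all 3 R lines and fell in mean in all 3 NR lines. The share of all genes with that pattern was not counted, so nothing is read from this. Mcl1 rose in mean in all 3 R lines, by 0.20 to 0.40 on the log2 scale, and ran from -0.01 to 0.22 in NR lines. Bcl2a1b ran from 0.08 to 0.85 in R lines and from -0.30 to 0.30 in NR lines. In the contrast of changes, with no test, the log2 difference was 0.39 ± 0.20 (SE) for Bcl2a1b, 0.19 ± 0.09 for Mcl1, 0.17 ± 0.23 for Bbc3 and from -0.02 to 0.08 for the other 6.

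**Figure D3:**
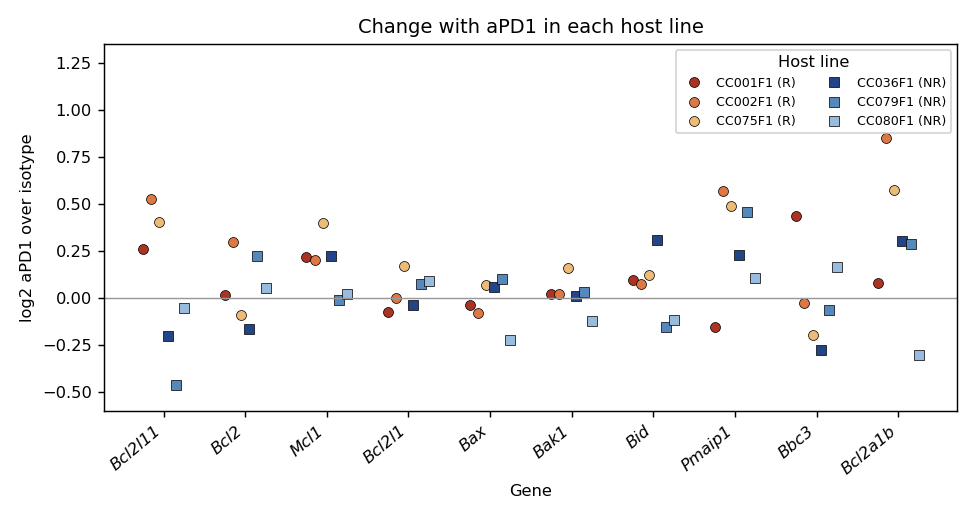
Mean log2 change with aPD1 over isotype in each host line for the 10 genes, with circles for R lines and squares for NR lines. Bcl2l11 has all 3 R lines above 0, from 0.26 to 0.53, and all 3 NR lines below 0, from -0.47 to -0.05.

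The survival genes were tested next, starting with Mcl1 (ENSMUSG00000038612, chr3:95658788-95663176, plus strand). It had 7956 to 9287 normalized counts (median 8968) in R isotype tumors and 9724 to 12390 (median 10176) in R aPD1 tumors. In NR tumors it had 8067 to 8660 (median 8444) with isotype, and with aPD1 it had 7968, 8595, 8818, 9656 and 9687. All R aPD1 tumors lay above all R isotype tumors, and also above all NR tumors.

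Mcl1 rose with aPD1 in R lines by 0.27 ± 0.07 on the log2 scale (SE, n = 12, DESeq2 adjusted p = 0.0116). In NR lines its change was 0.09 ± 0.06 (SE, n = 11, DESeq2 adjusted p = 1). Over all lines it was 0.19 ± 0.05 (SE, DESeq2 adjusted p = 0.0208). Mcl1 was higher in R than in NR over all tumors by 0.16 ± 0.05 (SE, DESeq2 adjusted p = 0.0179) and in aPD1 tumors by 0.25 ± 0.08 (SE, DESeq2 adjusted p = 0.0416). The call in aPD1 tumors was lost in 7 of 11 fits without a single tumor and under 6 of 11 other alternatives, with adjusted p-values up to 0.201.

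Bcl2a1b (ENSMUSG00000089929, chr9:89199209-89207827, plus strand) encodes a form of A1. In R isotype tumors it had 1032 to 1322 normalized counts (median 1200), and in R aPD1 tumors 1117 to 1980 (median 1791). In NR isotype tumors it had 613 to 1334 (median 989), and in NR aPD1 tumors 757, 766, 1036, 1154 and 1320. CC079F1 was lowest, with 613 to 766 in its 4 tumors, and the lowest tumor outside it, of CC036F1 with isotype, had 752.

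Bcl2a1b rose with aPD1 in R lines by 0.51 ± 0.13 on the log2 scale (SE, n = 12, DESeq2 adjusted p = 0.00607), and its change in NR lines was 0.13 ± 0.14 (SE, n = 11, DESeq2 adjusted p = 1). It was higher in R than in NR by 0.51 ± 0.14 over all tumors (SE, DESeq2 adjusted p = 0.00477) and by 0.76 ± 0.17 in aPD1 tumors (SE, DESeq2 adjusted p = 0.000458). With the counts of the Bcl2a1 genes summed, the difference over all tumors was 0.73 (DESeq2 adjusted p = 5.15e-07). Host line passed for it as well (DESeq2 likelihood ratio test, adjusted p = 8.46e-07).

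Bcl2 and Bcl2l1 passed in none of the 7 comparisons in which they were tested. Bcl2 ran from 726 to 1048 normalized counts and Bcl2l1 from 1762 to 2515, and the R and NR ranges overlapped in both. Their log2 differences between classes over all tumors were 0.11 (95% interval -0.01 to 0.24) and 0.08 (95% interval -0.04 to 0.20).

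Of the BH3-only genes, Pmaip1 (ENSMUSG00000024521) was higher in R than in NR. It had 67.6 to 165 normalized counts (median 107) in 12 R tumors and 47.8 to 101 (median 73.7) in 11 NR tumors. The difference was 0.58 ± 0.15 on the log2 scale over all tumors (SE, DESeq2 adjusted p = 0.00223) and 0.65 ± 0.20 in aPD1 tumors (SE, DESeq2 adjusted p = 0.0217). The call in aPD1 tumors was lost in 6 of 11 fits without a single tumor and under 4 of 11 other alternatives, with adjusted p-values up to 0.171, while the call over all tumors was kept in all 23 and all 11. Its change with aPD1 was 0.30 ± 0.19 in R lines (SE, DESeq2 adjusted p = 0.458). Host line passed (DESeq2 likelihood ratio test, adjusted p = 0.000625).

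Bid, which links death receptors to mitochondria, was 0.17 ± 0.06 higher in R than in NR (SE, DESeq2 adjusted p = 0.0406). It had 1195 to 1564 normalized counts in R tumors and 1057 to 1504 in NR tumors, and the groups overlapped. The call was lost in edgeR (adjusted p = 0.0781) and in 14 of 23 fits that left out a single tumor. Bbc3 ran from 179 to 364, and its class difference was -0.10 ± 0.11 (SE), which did not pass in DESeq2.

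Of the pore-forming genes, Bax did not pass in any comparison tested and was 0.12 ± 0.05 higher in R over all tumors (SE, DESeq2 adjusted p = 0.0616). Bak1 (ENSMUSG00000057789, chr17:27019810-27029009, minus strand) differed between host lines (DESeq2 likelihood ratio test, adjusted p = 2.06e-06, and edgeR adjusted p = 0.00262). In CC036F1 it had 4162 and 3875 normalized counts with isotype and 4284 and 3802 with aPD1. The other 19 tumors ran from 4515 to 5669, so CC036F1 lay below all of them. The endothelial markers Pecam1, Cdh5, Kdr and Tie1 moved with it. They summed to 1771 to 3275 normalized counts in the CC036F1 tumors and to 3350 to 6053 in the other 19. Pearson's r of log2 Bak1 with the mean log2 value of these markers was 0.82 over the 23 tumors, which share libraries and depth. The part of endothelial cell content in Bak1 was not tested. Its class difference, 0.12 ± 0.06 (SE), did not pass (DESeq2 adjusted p = 0.159).

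**Figure D4:**
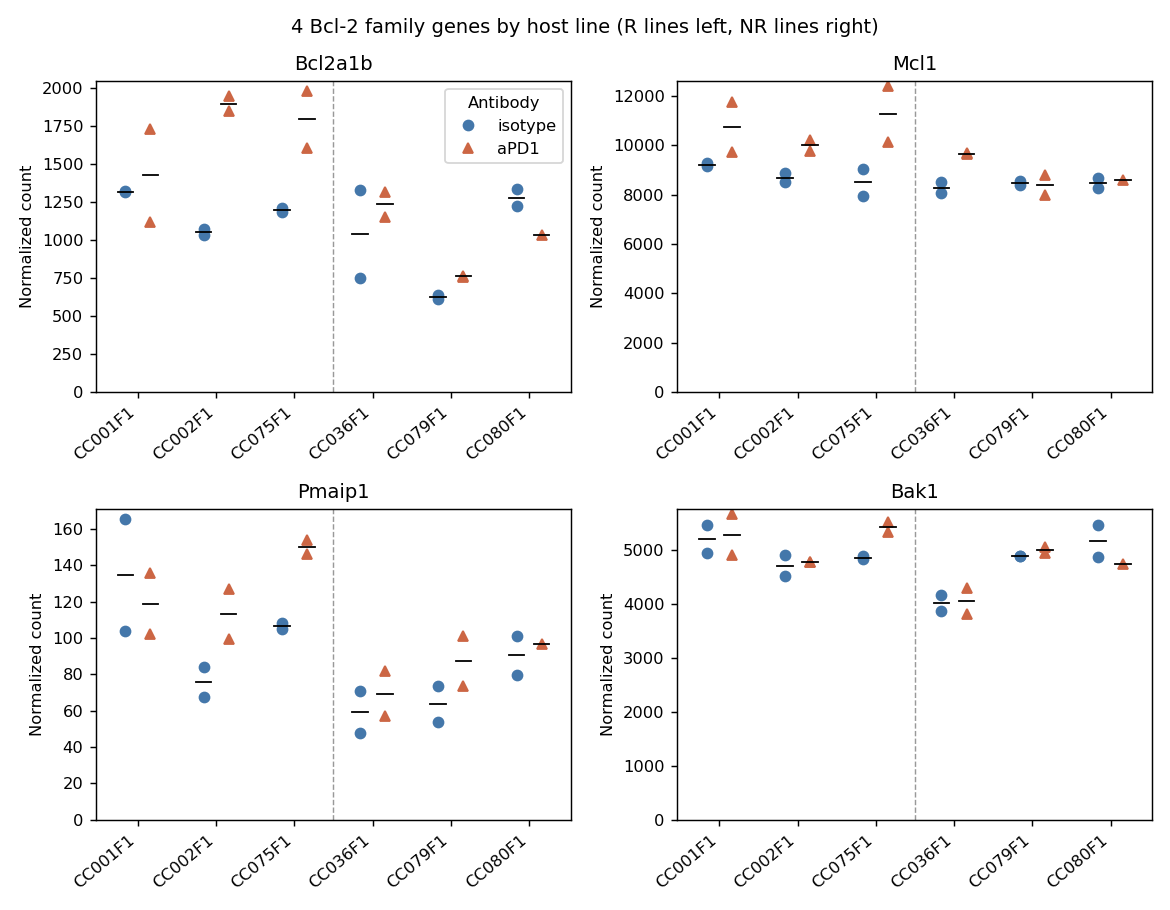
Normalized counts of Bcl2a1b, Mcl1, Pmaip1 and Bak1 by host line, with circles for isotype, triangles for aPD1 and a bar at each mean. The lowest Bak1 values, 3802 to 4284, are those of CC036F1.

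The members were chosen with earlier results of these data known, so their counts are descriptions and no test of the family. Counted together, 4 of 10 genes (Mcl1, Bid, Pmaip1 and Bcl2a1b) were higher in R than in NR over all tumors and 0 were lower, against 14.4% of all 17643 genes tested that passed in either direction and 7.66% that were higher. In aPD1 tumors 3 of the 9 tested genes were higher (Mcl1, Pmaip1 and Bcl2a1b), against 5.94% of 17156 genes. In isotype tumors 0 of 9 passed, against 5.53% of 14995 genes, with 2 at an unadjusted p under 0.05 in DESeq2, 0 of 9 past the adjusted threshold in edgeR, and Pmaip1 at 0.53 ± 0.24 (SE, DESeq2 adjusted p = 0.189). With aPD1 in R lines 2 of 9 were higher, against 4.85% of 15701 genes. With aPD1 in NR lines 0 of 9 passed in DESeq2 or edgeR, with 0 at an unadjusted p under 0.05 in DESeq2, against 0.0448% of 24552 genes. Over all lines 1 of 9 was higher, against 2.55% of 16638 genes. For host line, 4 of 10 passed, against 16% of 19192 genes. These include Bcl2l11, which was chosen from the same tumors.

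**Figure D5:**
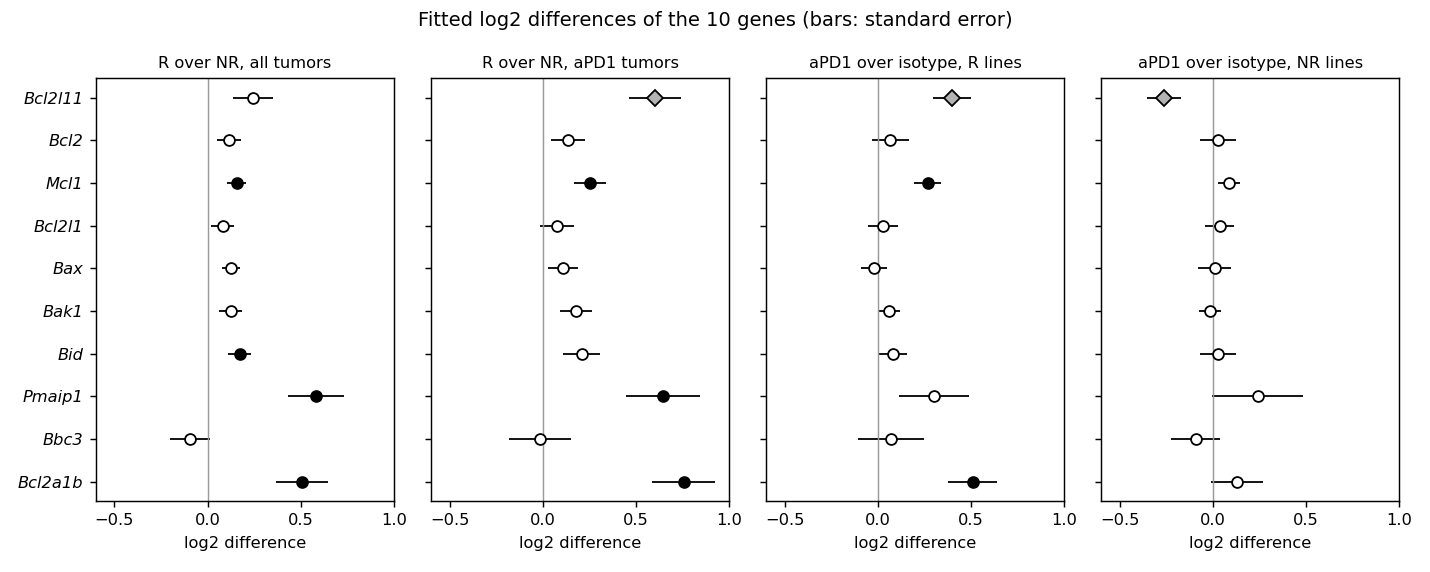
Fitted log2 differences with standard errors for the 10 genes in 4 comparisons, with filled circles for genes past an adjusted p of 0.05, open circles for the rest and gray diamonds for Bcl2l11 where it has no test. Mcl1 and Bcl2a1b are filled in the panel of aPD1 in R lines, at 0.27 and 0.51, and no circle is filled in the panel of NR lines.

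These counts depended on the tool. In edgeR, aPD1 in R lines called 0 of 24858 genes, while 2621 had an unadjusted p under 0.05. The edgeR adjusted p-values of Mcl1 and Bcl2a1b were 0.0848 and 0.077 there. In a limma fit where host line was a random effect, with an estimated correlation within lines of 0.0152 shared by all genes, Pmaip1 (adjusted p = 0.0289) and Bcl2a1b (adjusted p = 0.0167) were still higher in R over all tumors, Mcl1 and Bid were not (adjusted p = 0.0553 and 0.146), and none of the 9 passed in aPD1 tumors, where that correlation was 0.099. Such a shared value may be low for genes that differ by line, such as Bcl2a1b and Pmaip1, so these p-values do not replace a test over the 3 lines per class.

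Markers of some immune cells moved with the same classes. Of 8 T cell markers 7 were higher in R over all tumors, of 4 NK cell markers 2 and of 6 macrophage markers 4. Of 5 dendritic cell markers 1 was higher (median 0.18) and of 5 granulocyte markers tested 1 (median -0.54). None of 6 B cell markers passed over all tumors in DESeq2 (median -0.43, all below 0), while in aPD1 tumors 5 of the 6 were lower in R. B cell markers summed to 1134 and 4036 normalized counts in the Glycam1 tumors of CC079F1 and CC080F1 with aPD1. These sums were 222 to 388 in the other NR aPD1 tumors and 159 to 398 in R aPD1 tumors. All 5 skeletal muscle markers were higher in R in aPD1 tumors. T cell markers summed to 1063 to 3976 normalized counts in R aPD1 tumors and 444 to 1493 in NR aPD1 tumors. NK cell markers summed to 776 to 2429 and 432 to 493 in the same groups. Within that sum, Klrk1 had 538 to 1662 in R aPD1 and 183 to 304 in NR aPD1 tumors. Ncr1, Klrb1c and Eomes each overlapped between these groups. Over the 23 tumors, which share libraries and depth, log2 values were also correlated with the mean log2 value of the NK cell markers. Pearson's r was 0.70 for Bcl2l11, 0.69 for Mcl1, 0.78 for Pmaip1 and 0.70 for Bcl2a1b. In the same order, r was 0.59, 0.74, 0.71 and 0.76 with the macrophage markers. It was 0.44, 0.62, 0.64 and 0.76 with the T cell markers, so the correlations were not particular to NK cell markers. The part of immune cell content in the values of these genes was not tested.

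The rest of the family and the pathway were described from lists of named genes. Of 13 other family genes tested over all tumors, 2 were higher in R and 2 lower, with a list median of 0.01, against 14.4% of all genes tested in either direction and 7.66% higher. Bcl2a1a and Bcl2a1d, further A1 genes, were higher by 1.04 ± 0.14 and 1.02 ± 0.14 on the log2 scale (SE, DESeq2 adjusted p = 6.35e-10 and 2.04e-10). Of their 100-base windows, 43.5% and 54.7% occur in other genes, mostly in each other. Their values are thus uncertain, and the calls are not separate. Bmf, a BH3-only gene, was lower by -0.62 ± 0.21 and Bnip3l, a mitophagy receptor, by -0.31 ± 0.10 (SE, DESeq2 adjusted p = 0.0308 and 0.0172).

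Of 12 death receptor pathway genes, 4 were higher in R and 0 lower, against the same 7.66% higher over all genes. Fasl, the Fas ligand of cytotoxic lymphocytes, differed by 1.38 ± 0.29 and Tnfsf10 (TRAIL) by 0.74 ± 0.19 (SE, DESeq2 adjusted p = 0.000127 and 0.002). Ripk3, a kinase of necroptosis, differed by 0.67 ± 0.12 and the TNF receptor Tnfrsf1a by 0.20 ± 0.05 (SE, DESeq2 adjusted p = 4.34e-06 and 0.00532). Of 18 genes of the mitochondrial machinery, 3 were higher and 2 lower, of which 4 are named here. The caspase Casp2 was higher by 0.13 ± 0.04 and the protease Htra2 by 0.14 ± 0.05, and the differences were -0.22 ± 0.07 for the caspase Casp6 and -0.16 ± 0.04 for Diablo, an antagonist of caspase inhibitors (SE, all past the threshold in DESeq2). Of 12 p53 targets, 3 passed, and Btg2 and Pidd1 were higher and Eda2r lower, and of 12 regulators of the family only Trp53 passed, at 0.15 ± 0.05 (SE, DESeq2 adjusted p = 0.0195). The medians of these 4 lists were 0.03 to 0.06, and that of all genes tested was -0.00042.

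With aPD1 in R lines, 2 of 11 other family genes tested rose (Bcl2a1a by 0.48 and Bcl2a1d by 0.54 on the log2 scale), against 4.85% of all genes tested that rose. These 2 genes share sequence, so their calls are not separate. Of 12 death receptor genes 3 rose (Tnfsf10 by 0.93, Tnfrsf1a by 0.29 and the caspase-8 regulator Cflar by 0.22), and of 11 p53 targets tested 1 rose (Btg2 by 0.63). None of the 18 mitochondrial genes or 12 regulators passed in DESeq2, and each of these lists had 1 gene at an unadjusted p under 0.05. In NR lines no gene of the 5 lists passed in DESeq2, and at an unadjusted p under 0.05 there were 5 p53 targets and 0 genes of the other lists. Over all genes, 1316 of 24552 had an unadjusted p under 0.05 there. Of the 12 p53 targets, 7 had a log2 change above 0, with a list median of 0.03.

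The genes whose levels ran most like those of Bcl2l11 over the 23 tumors were A230050P20Rik (Pearson's r = 0.86), the phosphatase Inpp5k (0.84), Itm2b (0.83), the lipid carrier Scp2 (0.82) and Dram2 (0.81). The comparison was over 12055 genes with a mean of at least 100 normalized counts, of which 8.36% had r above 0.5, and the points share libraries and depth. Within the groups of line and antibody, r was 0.70, 0.60, 0.58, 0.59 and 0.10. Among the family, r with Bcl2l11 was 0.55 for Bcl2a1b, 0.51 for Mcl1, 0.51 for Pmaip1 and -0.27 for Bbc3, and within the groups it was 0.06, 0.33, 0.26 and -0.66. The value for Bbc3 rests largely on the CC075F1 tumors with aPD1. There Bcl2l11 had 1533 and 1109 normalized counts and Bbc3 had 179 and 354.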

How the data were processed

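Poly(A) RNA of 23 tumors was sequenced. Per the study's methods, the authors aligned reads with Bowtie 1.2.3 to transcriptomes of the founder strains (GRCm38) and split reads over haplotypes to estimate each gene. The deposited values are expected counts, not scaled for depth, in which shared reads are split between genes. Of the values, 16.9% were not whole, and all were rounded. Names and coordinates came from GENCODE vM21 on GRCm38, an earlier release than the authors', which held 26681 of 26869 genes. The 188 others had 0.0993% of counts.

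Genes with at least 5 counts over the libraries of a fit were tested with DESeq2 1.42.0 in R 4.3.3, following the study. Class fits compared tumors of R and NR lines, antibody fits held line as a term, the contrast of changes added the class by antibody term, and host line used a likelihood ratio test with antibody as a term. P-values were adjusted by Benjamini-Hochberg over all genes tested, with a threshold of 0.05. Alternatives were edgeR 4.0.16, limma 3.58.1, other size factors and filters, deep libraries, a depth term, a replicate block, summed Bcl2a1 genes, and fits without single tumors or tumors with Glycam1 or muscle counts (the last chosen after seeing the data). Log2 values for correlations used a pseudocount of 1.

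The fits were tested on simulated counts: the sizes of known changes were estimated with little bias, but many of the smaller ones were missed, most in the contrast of changes, and false calls exceeded the nominal rate, most for host line. The simulated tumors were independent, with no differences between host lines beyond the changes put in. The simulation thus cannot give the false-call rate of class fits, which treat tumors of a line as independent. The labels call the tumors of a group biological replicates. Replicate pairs differed by far more than sampling noise. The members and lists were chosen with earlier results of these data known. All 10 members are named. Of the other lists, genes called in a class comparison (at most 6 per list, smallest adjusted p first) or in an antibody comparison are named, and the 5 genes most correlated with Bcl2l11. A result of the mitochondrial list is not reported here.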

Additional observations from a re-analysis of the deposited data

Results flagged for a closer look

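Among 40 pairs of gene and group (class by antibody), 2 held a tumor that stood apart by Dixon's criterion, which chance gives in about 1 of 20 groups. In R isotype tumors, the highest Bcl2l11 value, 1111 normalized counts in replicate 2 of CC075F1, was separated from the next by 67.0% of the group's range. In R aPD1 tumors, the lowest Bbc3 value, 179 normalized counts in replicate 1 of CC075F1, was separated by 67.7%. The change of Bcl2l11 with aPD1 differed between R and NR lines by 0.67 on the log2 scale. The mean change had opposite signs in all lines of the classes, and because this contrast chose the gene, the difference is a description and was not tested on other data.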

How the results depend on the processing

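The direction of each member that passed was the same under all alternatives run, and the counts of members past the threshold changed as follows. Over all tumors, 4 members passed in the class comparison, but 2 in the deep libraries, 2 without tumors with Glycam1 counts, 2 without tumors with skeletal muscle counts (chosen after seeing the data) and 2 in limma where host line was a random effect, and 3 to 5 when a single tumor was left out. In aPD1 tumors the count of 3 fell to 1 in edgeR, 1 without the Glycam1 tumors, 1 without the muscle tumors and 0 in limma, and ran from 1 to 3 without single tumors. It was 1 without replicate 2 of CC001F1, replicate 1 of CC002F1, replicate 1 of CC075F1 or replicate 1 of CC079F1, all with aPD1. Mcl1 alone also lost its call there without replicate 2 of CC075F1, replicate 2 of CC079F1 or the single tumor of CC080F1, and Pmaip1 without either tumor of CC036F1 (DESeq2 adjusted p of 0.052 to 0.14 for Mcl1 and 0.0524 to 0.0797 for Pmaip1). In isotype tumors it was 0, and 1 with the Bcl2a1 genes summed, and 0 without any single tumor. With aPD1 in R lines the count of 2 was 0 in edgeR and 1 to 2 without single tumors (1 without replicate 2 of CC001F1 with aPD1). Over all lines the count of 1 was 0 in edgeR and without the muscle tumors, and 2 with a depth term, without the Glycam1 tumors and with the Bcl2a1 genes summed, and ran from 0 to 2 without single tumors. It was 0 without replicate 2 of CC001F1 or replicate 1 of CC002F1 with aPD1, or replicate 1 of CC075F1 with isotype. In the contrast of changes the count of 1 is fixed by the choice of Bcl2l11, and it was 0 in edgeR. The log2 change of Bcl2l11 with aPD1 over all lines was 0.09, and -0.037 without the muscle tumors. Its difference of changes ran from 0.61 to 0.74 without single tumors and from 0.58 to 0.78 under the other alternatives. The causes were not tested. Same-numbered tumors of both antibodies did not pair in every line, as their deviations correlated at -0.20 to 0.37 over 12055 genes in 5 lines. With a replicate block the difference of changes of Bcl2l11 was 0.68. The block ended the calls of Mcl1 in aPD1 tumors (DESeq2 adjusted p = 0.0559) and of Bcl2l11 for host line (DESeq2 adjusted p = 0.0526). Of the depth, 6 shallow libraries limit low genes such as Pmaip1 most.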
